A study of Mus musculus with 12 samples.

Results

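The 49 genes described here encode the working parts of the lysosome: hydrolytic enzymes, proteins of its limiting membrane, subunits of its proton pump and the 2 receptors that bring enzymes to it. They were taken by symbol from the 24421 symbols of a bulk RNA-seq count table of bone marrow-derived macrophages (BMDMs). No cut-off on the measured values was used, but the list was chosen with earlier results of these data known. All 49 were in the table and all 49 passed the filter on low counts, among 11468 genes tested.

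BMDMs from 3 wild-type C57BL/6 mice, called A, B and C, were differentiated with M-CSF (100 ng/mL) over 5 days, and cells of every mouse entered each of 4 groups. The groups were DMSO solvent with ovalbumin alone (DMSO, Ova), the bromodomain and extra-terminal domain inhibitor I-BET151 at 5.0 µM with ovalbumin (iBET, Ova), DMSO with IgG immune complexes of ovalbumin (DMSO, IC), and I-BET151 at 5.0 µM with immune complexes (iBET, IC). Stimulation lasted 4 h, and each group held 3 libraries. The labels give 5% DMSO for the solvent groups and no amount for the iBET groups, so whether the solvent was matched is not known. The labels have drug and stimulus added together, whereas the methods of the study place the drug shortly before the stimulus, so the length of drug exposure is uncertain. The age of the mice that gave the marrow is not in the sources used here. The question was how the inhibitor and the immune complex altered expression of the lysosomal machinery.

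Lysosomes are acidic organelles in which material taken up by phagocytosis and endocytosis is broken down, and macrophages are rich in them. A rotary pump, the vacuolar ATPase, uses ATP in its cytosolic V1 sector to drive protons through its membrane V0 sector, and the resulting acidity activates the hydrolases. Many lysosomal genes carry an E-box in their promoter that is bound by the MiT/TFE transcription factors TFEB, TFE3, MITF and TFEC, and most soluble hydrolases reach the lysosome on mannose 6-phosphate receptors.

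The promoters of several of these genes show that E-box directly. RefSeq windows of 300 bases on GRCm38.p6, from 250 bases before to 50 after a transcription start, were at hand for 41 of the 49 genes, in 48 windows. The E-box core CACGTG, a palindrome, stood in 29.2% of these windows and in 7.15% of all 32851 windows. The longer form TCACGTGA, which contains that core, stood in 12.5% and 0.974%. The M-box core CATGTG, read on both strands, stood in 20.8% against 14.2%, and the GC box GGGCGG, read on both strands, in 66.7% against 35.7%. The 4 stretches below were chosen because they carry TCACGTGA or, in Lamp1, the most copies of the core. Atp6v0d1, Cln3 and Gla also carry TCACGTGA and are named only. They are written 5′ to 3′ on the gene's strand with each CACGTG in capitals, and all of them lie before the RefSeq start of their window. In GENCODE vM21 the last 30 bases of the Mcoln1 stretch belong to an annotated 5′ UTR.
Lamp1: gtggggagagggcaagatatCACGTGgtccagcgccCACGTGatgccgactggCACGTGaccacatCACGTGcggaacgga
Mcoln1: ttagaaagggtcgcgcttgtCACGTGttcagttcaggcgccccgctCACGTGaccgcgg
Atp6v1a: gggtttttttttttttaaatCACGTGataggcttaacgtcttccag
Igf2r: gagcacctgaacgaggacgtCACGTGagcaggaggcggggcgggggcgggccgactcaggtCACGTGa

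These stretches lie at chr8:13159080-13159160 on the plus strand (Lamp1), chr8:3500428-3500486 on the plus strand (Mcoln1), chr16:44139365-44139410 on the minus strand (Atp6v1a) and chr17:12769707-12769774 on the minus strand (Igf2r). Lamp1 holds 4 cores, between 61 and 15 bases before its start. Neu1 and Acp2, which turned out to have the largest rise and the largest fall with iBET, hold no CACGTG in their windows. The Neu1 window does hold 1 M-box core CATGTG, 4 bases after the start and outside the stretch shown. Their promoters are shown for contrast, with the GC box on either strand in capitals, at chr17:34931166-34931211 on the plus strand for Neu1 and chr2:91202852-91202911 on the plus strand for Acp2, where 27 bases belong to an annotated 5′ UTR.
Neu1: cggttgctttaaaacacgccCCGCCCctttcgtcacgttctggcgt
Acp2: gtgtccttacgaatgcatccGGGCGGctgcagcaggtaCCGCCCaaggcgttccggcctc

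Library depth ran from 7549849 to 17387639 counts. The library of mouse A in DMSO, Ova stood apart, with 77.4% of its counts on the ribosomal precursor Rn45s, against at most 7.83% in the other 11. All 8 listed macrophage markers were detected, at a summed level of 5570 to 7000 CPM (counts scaled to library size) in DMSO libraries and 6780 to 8230 CPM in iBET libraries, and the part of this shift in the changes below was not tested. The summed levels of the other marker lists were 60.9 to 88.9 CPM for osteoclast, 9.76 to 56.3 for neutrophil, 0.451 to 1.55 for dendritic cell, 0.338 to 1.69 for lymphoid and 0 to 1.32 for stromal, erythroid and mast cell genes. In a bulk sample, fewer cells of a type and less RNA per cell cannot be told apart. The p-values of the main fit measure the spread of libraries from 3 mice around their group means. That fit left out which libraries came from the same mouse, so stable differences between mice are part of this spread.

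Levels of the 49 genes differed far more between genes than between groups. Per kilobase of exon, the mean over all 12 libraries was highest for Cd68, a heavily glycosylated macrophage membrane protein, at 757 CPM per kilobase. It was followed by Psap, the precursor of the saposins that help enzymes reach lipids, at 672, Lamp1, a major protein of the lysosomal membrane, at 544, Lgmn, an asparaginyl endopeptidase, at 355, and Hexa, the alpha subunit of beta-hexosaminidase, at 268. The lowest were Arsa, the arylsulfatase that acts on sulfatide, at 2.67 and Acp5, the tartrate-resistant acid phosphatase of osteoclasts, at 2.06, a span of 367-fold. Within the pump, Atp6v0c, which builds the proton-carrying ring, was the highest V0 subunit at 93.6 and Atp6v1f the highest V1 subunit at 92.4 CPM per kilobase. Together the 49 genes took 1.58% ± 0.216 (SD, n = 3) of counts other than Rn45s in DMSO, Ova, 1.71% ± 0.172 in iBET, Ova, 1.63% ± 0.150 in DMSO, IC and 1.77% ± 0.0794 in iBET, IC. The libraries of all 4 groups overlapped.

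**Figure D1:**
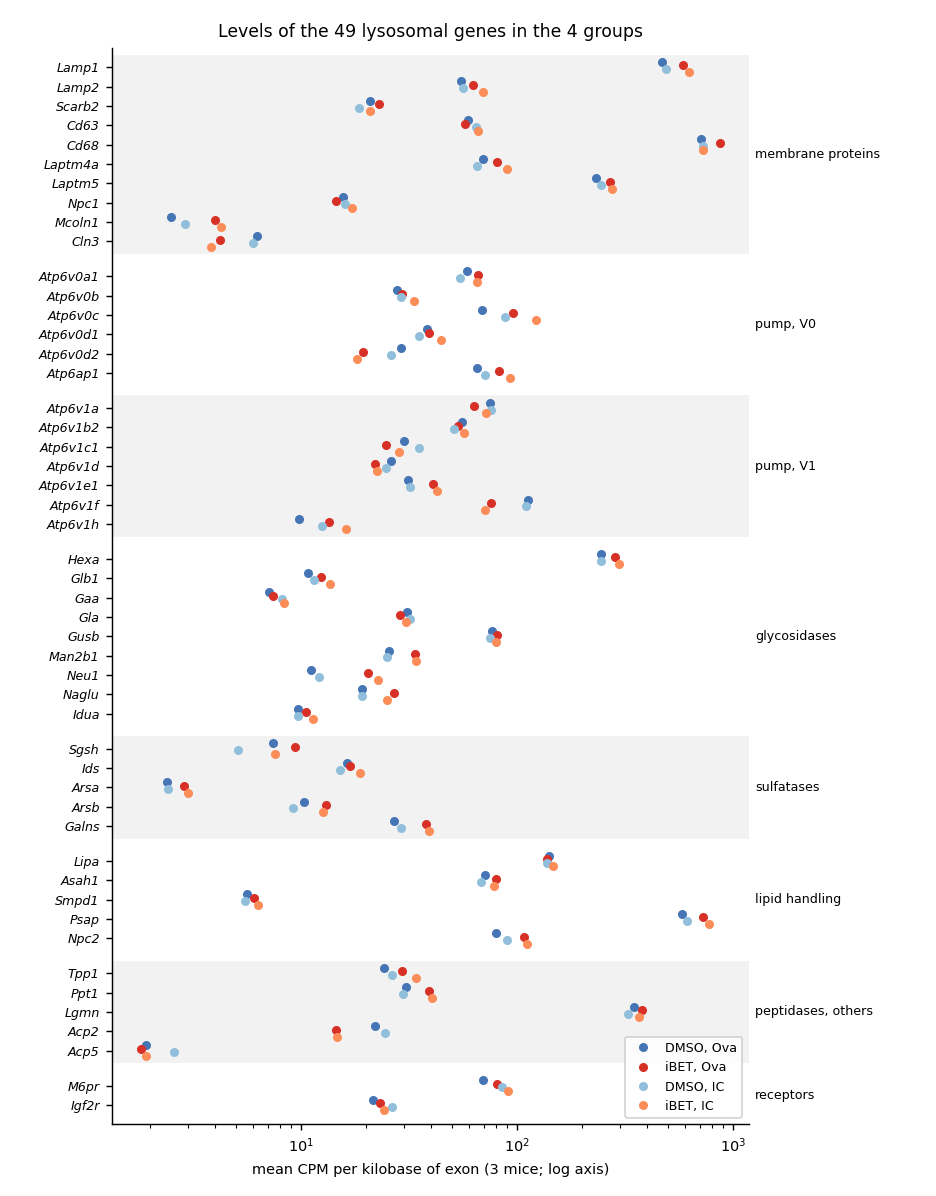
Mean level of each of the 49 genes per kilobase of exon (log axis, CPM per kilobase, 3 mice) in the 4 groups, ordered by role. Genes span 367-fold, from Acp5 at 2.06 to Cd68 at 757 over all libraries, while the 4 group means of 1 gene sit close together.

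iBET raised a minority of the lysosomal genes by modest amounts and lowered 2. In Ova, 8 of 49 genes were higher (16.3%) and 2 lower (4.08%) at an adjusted p under 0.05, where 17.1% of all tested genes were higher and 14.2% lower. In IC, 11 were higher (22.4%) and 2 lower (4.08%), where 19.0% of all genes were higher and 15.8% lower. The share of higher genes was thus near that of all genes in both stimulations, and the share of lower genes was below it. Their median log2 fold change was 0.17 in Ova and 0.22 in IC, against 0.02 and -0.00 over all tested genes. The Ova median was lower without mouse A, at 0.0188 without its 4 libraries, 0.0781 without its DMSO, Ova library and 0.1038 without its iBET, Ova library. Fold changes are on the log2 scale of the edgeR fit throughout, with the standard error (SE) after the sign ±.

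Of the 49 genes, 6 were higher in both stimulations: Neu1, Mcoln1, Galns, Atp6v0c, Ppt1 and Atp6v1e1. Acp2 and Cln3 were lower in both. Atp6v1h and Naglu passed the test as higher in Ova but not IC, and Laptm4a, Hexa, Man2b1, Sgsh and Arsb in IC but not Ova. No gene was called in opposite directions, 34 were called in neither, and 43 of 49 had the same sign in both. Whether a gene passing in 1 stimulation responded differently in the other was tested by the interaction of drug and stimulus. It called 0 of 49 genes and 0.00% of all tested genes, with 0 of the 49 at an unadjusted p under 0.05. Its errors were larger, with a median SE of 0.1964 against 0.1397 and 0.1384 for iBET in Ova and IC. A count of 0 therefore does not show equal responses. Across the 49 genes the Pearson correlation of the 2 sets of fold changes was 0.91, close to the 0.89 over all 11468 genes, and the 2 sets share mice and the estimate of spread but no libraries.

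With mouse as a block in the fit, the counts grew to 12 higher and 3 lower in Ova (20.4% and 17.9% of all genes) and to 16 higher and 3 lower in IC (22.4% and 19.8%). The genes added in Ova were Hexa, Arsb, Psap and Npc2 as higher and Atp6v0d2 as lower. Those added in IC were Atp6v0a1, Atp6v0d1, Atp6v1h, Naglu and Psap as higher and Atp6v0d2 as lower. By a rule without a model, 15 genes had all 3 iBET libraries above all 3 DMSO libraries in Ova and 2 had all 3 below, where 25.2% and 19.9% of all genes did. In IC these numbers were 24 and 3, where 26.3% and 22.3% of all genes did.

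**Figure D2:**
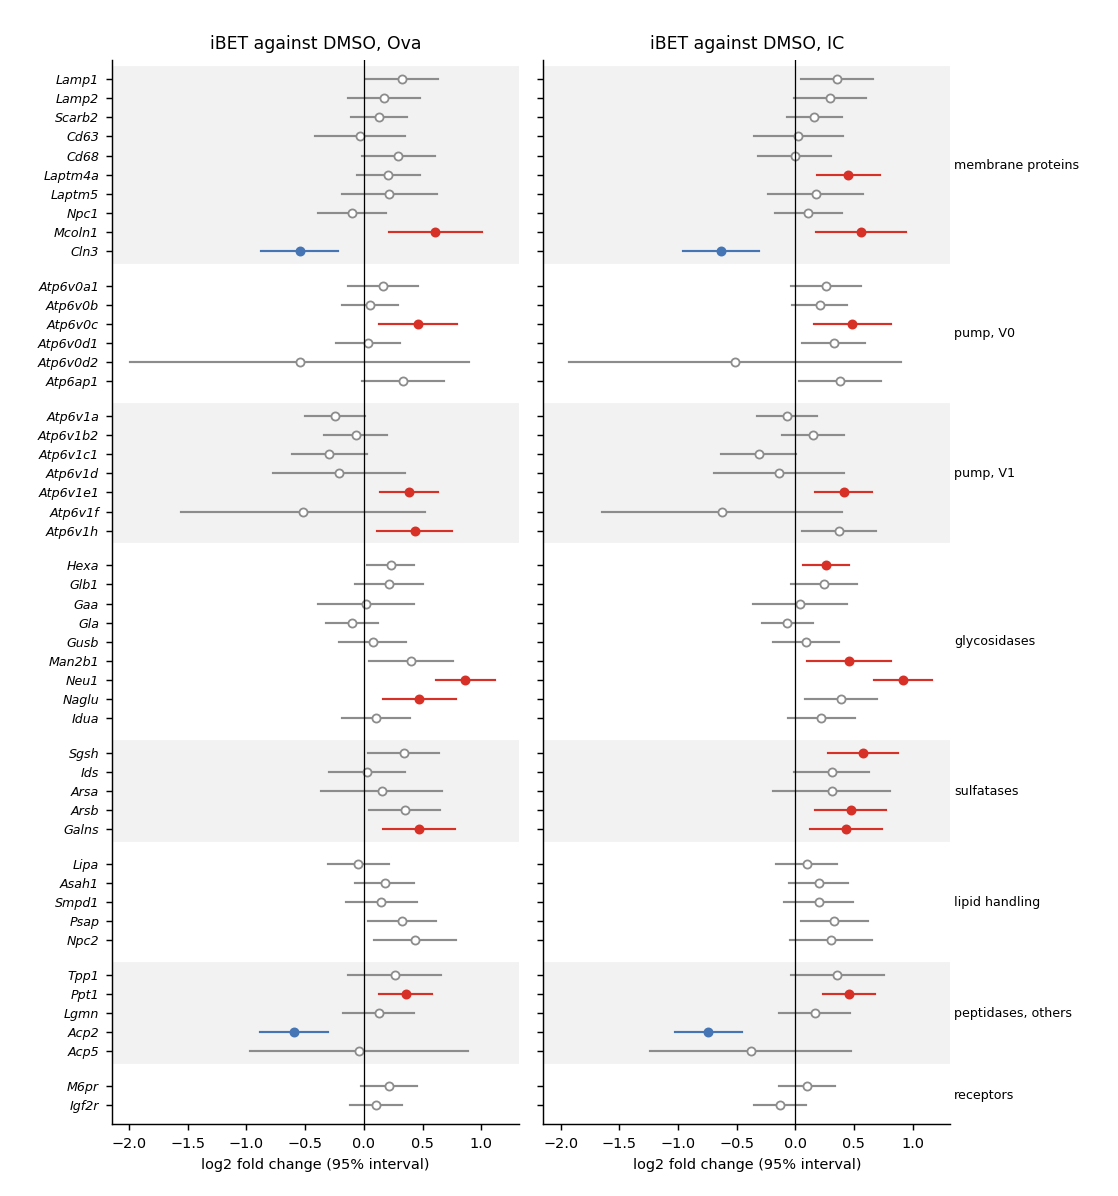
Log2 fold change of each gene with iBET against DMSO in Ova (left) and IC (right), with 95% intervals from the fit without the mouse block. Filled red points were higher and filled blue points lower at an adjusted p under 0.05, open grey points did not pass, and the 8 genes filled in both panels are Neu1, Mcoln1, Galns, Atp6v0c, Ppt1 and Atp6v1e1 in red, Acp2 and Cln3 in blue.

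The rise was largest in mouse A. Within mouse A the median log2 difference of the 49 genes between iBET and DMSO was 0.39 in Ova and 0.38 in IC, with 41 of 49 genes up in each. In mouse B the medians were 0.07 and 0.11, and in mouse C 0.07 and 0.18, with 30 genes up in Ova and 35 in IC in either mouse. Over all tested genes the medians in Ova were 0.0441, 0.0561 and 0.026 in mice A, B and C, and in IC 0.0076, 0.0409 and -0.0087, so the Ova value of mouse B was near that of all genes. The DMSO libraries of mouse A also stood apart for these genes: in 19 of the 49 (38.8%) both were below all 4 DMSO libraries of the other mice, where 18.9% of all tested genes were. In 4 genes (8.16%: Cd63, Atp6v1d, Atp6v1f and Asah1) both were above, where 20.7% of all genes were. Its iBET libraries were both above those of the other mice in 19 of 49 genes (38.8%, against 7.12% of all genes) and both below in 0 (6.53% of all genes). These 2 DMSO libraries had the highest Rn45s shares, 77.4% and 7.83%, and the part of Rn45s in the difference was not tested. Other mice stood apart too. Both DMSO libraries of mouse B were the highest in 12 genes (24.5%, against 5.98% of all genes). Mouse C had the lowest DMSO libraries in 10 genes (20.4%, against 6.9%) and the lowest iBET libraries in 11 (22.4%, against 9.96%).

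Single libraries decided many of these calls. In Ova the 8 higher genes became 2 (4.08%, against 13.9% of all genes) with the mouse A library of DMSO, Ova left out, where Mcoln1, Atp6v0c, Atp6v1h, Naglu, Galns and Ppt1 lost the call. They became 1 (Neu1, 2.04% against 13.2%) with the mouse A library of iBET, Ova left out, and Cln3 was then no longer called lower. The count was 4 without mouse C of DMSO, Ova (8.16% against 13.4%) and 3 without mouse B of iBET, Ova (6.12% against 12.8%). In IC the 11 higher genes became 6 without mouse A of DMSO, IC (12.2% against 14.9%) and 7 without mouse C (14.3% against 16.9%). They became 4 without mouse A of iBET, IC (8.16% against 15.3%) and 7 without mouse C (14.3% against 15.3%). Without all 4 libraries of mouse A, 3 genes were higher in Ova (6.12%, against 17.8% of all genes), without mouse B 1 (2.04% against 6.23%) and without mouse C 2 (4.08% against 9.24%). In IC 8 were higher without mouse A (16.3% against 18%), 1 without mouse B (2.04% against 8.43%) and 4 without mouse C (8.16% against 11.8%). The lower genes of Ova numbered 4, 0 and 1 without mice A, B and C, where 15.8%, 5.18% and 8.34% of all genes were lower. Those of IC numbered 1 without mouse B (6.97% of all genes) and 1 without mouse C (9.82%).

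**Figure D3:**
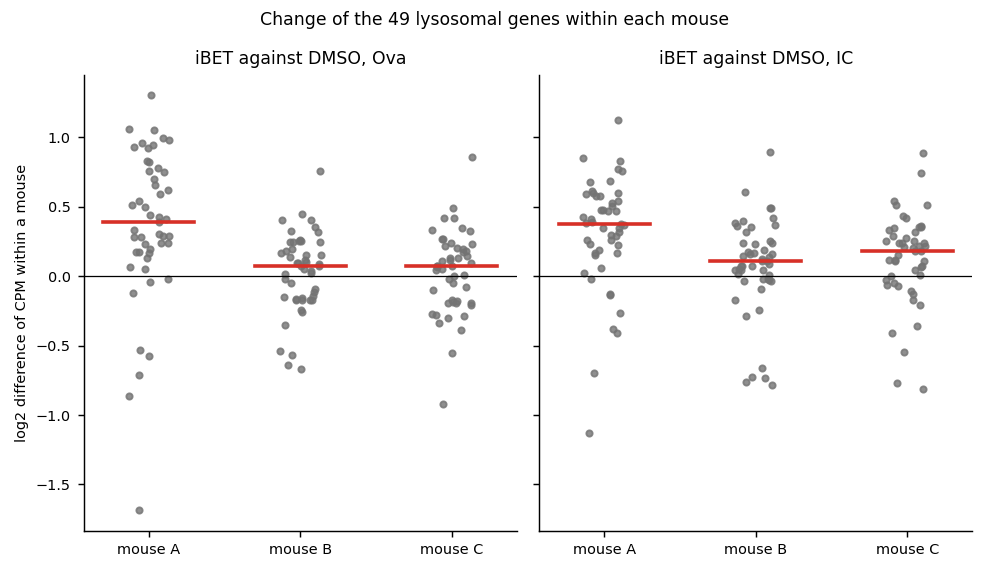
Log2 difference of CPM between the iBET and the DMSO library of the same mouse for the 49 genes (grey points, 1 per gene) in Ova (left) and IC (right), with the median in red. The medians of mouse A, 0.39 and 0.38, lie above those of mice B and C, which run from 0.07 to 0.18.

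Among the 10 genes of the lysosomal membrane, Mcoln1 rose and Cln3 fell in both stimulations, and Laptm4a rose in IC. In Ova 10% of the 10 were higher and 10% lower, against 17.1% and 14.2% of all genes. In IC these shares were 20% and 10%, against 19.0% and 15.8%. Mcoln1, on chromosome 8 (GRCm38, 3500457 to 3515232), encodes the calcium-releasing channel mucolipin 1 and was one of the scarcer transcripts. Its level was 12.3, 23.7 and 20.6 CPM in the DMSO, Ova libraries of mice A, B and C and 30.7, 32.4 and 27.5 CPM with iBET. In IC it was 24.7, 22.6 and 18.5 CPM in DMSO and 30.7, 31.8 and 34.4 CPM with iBET. The iBET libraries lay above the DMSO libraries in both stimulations, without overlap. The log2 fold change was 0.61 ± 0.18 in Ova (adjusted p = 0.0232) and 0.56 ± 0.18 in IC (adjusted p = 0.0279), 1.53-fold and 1.47-fold. The Ova call was lost in 4 of 12 fits that left out 1 library and without mouse A, B or C, and the IC call in 5 of 12 and without mouse B or C.

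Cln3, on chromosome 7 (126571207 to 126585817), encodes the multipass membrane protein mutated in juvenile neuronal ceroid lipofuscinosis. Its level was 40.1, 35.9 and 32.0 CPM in DMSO, Ova and 22.0, 24.7 and 26.5 CPM in iBET, Ova. With IC the level was 27.5, 40.4 and 35.5 CPM in DMSO and 22.9, 23.4 and 20.1 CPM with iBET. The groups did not overlap in either stimulation, with iBET below. Cln3 fell by 0.55 ± 0.15 on the log2 scale in Ova (adjusted p = 0.0161) and by 0.63 ± 0.15 in IC (adjusted p = 0.0056). Its exons overlap those of Apobr on the opposite strand, and the strand setting of the counting is not given in the sources used here, so reads of the pair cannot be told apart. Apobr, which encodes a lipoprotein receptor of macrophages, was itself lower with iBET, by 1.39 in Ova (adjusted p = 0.0473) and by 1.51 in IC (adjusted p = 0.0306), with 392, 139 and 114 CPM in DMSO, Ova.

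Laptm4a, a small transmembrane protein of late endosomes and lysosomes, was 0.45 ± 0.12 higher in IC (adjusted p = 0.0130) and 0.21 ± 0.12 different in Ova (adjusted p = 0.230). Cd68 was the highest per kilobase of all 49 genes, with 900, 981 and 794 CPM in DMSO, Ova and 1090, 1120 and 1060 CPM in iBET, Ova. Under IC the gene was 1000, 885 and 851 CPM in DMSO and 1130, 868 and 737 CPM with iBET. The Ova groups did not overlap and the IC groups did, and neither difference passed the test (log2 0.29 ± 0.14, adjusted p = 0.144, and -0.00 ± 0.14, adjusted p = 0.987). Lamp1 and Lamp2, the 2 most abundant structural glycoproteins of the membrane, differed by 0.32 ± 0.14 and 0.17 ± 0.14 in Ova and by 0.35 ± 0.14 and 0.30 ± 0.14 in IC, and none of the 4 values passed (adjusted p from 0.0698 to 0.388). Scarb2, the receptor for beta-glucocerebrosidase, Cd63, a tetraspanin, Laptm5 and Npc1, a cholesterol transporter, ranged from -0.10 to 0.22 in Ova and from 0.03 to 0.17 in IC, and none was called. In mouse A alone Laptm5 differed by 1.00 in Ova, where mice B and C differed by -0.12 and -0.08.

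Of the 13 proton pump genes, 3 were higher in Ova (23.1%, against 17.1% of all genes) and 2 in IC (15.4%, against 19.0%). Of the 6 V0 and accessory genes 1 was higher in each stimulation (16.7%). Of the 7 V1 genes 2 were higher in Ova (28.6%) and 1 in IC (14.3%). Atp6v0c, on chromosome 17 (24163866 to 24169702), was at 187, 252 and 262 CPM in DMSO, Ova and at 365, 298 and 304 CPM in iBET, Ova. In the IC libraries it was 238, 324 and 326 CPM in DMSO and 431, 424 and 389 CPM with iBET. The iBET libraries were above the DMSO libraries in both stimulations. Its log2 fold change was 0.46 ± 0.15 in Ova (adjusted p = 0.0368) and 0.48 ± 0.15 in IC (adjusted p = 0.0256). The Ova call was lost under DESeq2 and in 6 of 12 fits that left out 1 library, with an adjusted p of 0.190 when mouse A of DMSO, Ova was absent. The IC call was lost in 3 of 12, with an adjusted p of 0.115 when mouse A of DMSO, IC was absent.

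Atp6v1e1, on chromosome 6 (120794305 to 120822793), encodes a subunit of the stalks that hold the V1 sector to V0. It was at 131, 130 and 123 CPM in DMSO, Ova and at 173, 173 and 157 CPM in iBET, Ova. In IC it was at 147, 137 and 112 CPM in DMSO and at 190, 177 and 160 CPM with iBET. There was no overlap in either stimulation, and the 3 mice rose by like amounts in Ova, by 0.39, 0.41 and 0.35. The fitted log2 change was 0.39 ± 0.11 in Ova (adjusted p = 0.0205) and 0.41 ± 0.11 in IC (adjusted p = 0.0130). Atp6v1h, a regulatory subunit of V1, was 0.43 ± 0.15 higher in Ova (adjusted p = 0.0395) and 0.37 ± 0.14 different in IC (adjusted p = 0.0623, and 0.0241 with the mouse block). Its Ova call was lost in 8 of 12 fits that left out 1 library.

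Atp6v1f, on chromosome 6 (29467718 to 29470512), was the highest V1 gene per kilobase and the least even among mice. It was at 216, 69.6 and 72.7 CPM in DMSO, Ova and at 67.1, 87.2 and 87.5 CPM in iBET, Ova. With IC the level was 198, 79.3 and 73.6 CPM in DMSO and 90.0, 81.7 and 55.4 CPM with iBET. Only the 2 DMSO libraries of mouse A were high, and the groups overlapped. Neither difference passed, at -0.52 ± 0.47 in Ova (adjusted p = 0.443) and -0.63 ± 0.47 in IC (adjusted p = 0.326). Atp6v1d followed the same outline, with 173 and 156 CPM in the DMSO libraries of mouse A and 91.7 to 95 CPM in the other DMSO libraries.

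Atp6v0d2, on chromosome 4 (19876841 to 19922605), is the d-subunit isoform linked to osteoclast fusion, and it was chosen for description after its values were seen. It was at 114, 92.7 and 30.3 CPM in DMSO, Ova and at 78.6, 62.6 and 15.9 CPM in iBET, Ova. Under IC the gene was at 89.2, 93.9 and 30.4 CPM in DMSO and at 68.4, 56.3 and 23.7 CPM with iBET. Mouse C was the lowest in every group, the groups overlapped, and within each mouse the iBET library was the lower in both stimulations. The log2 fold change was -0.55 ± 0.66 in Ova (adjusted p = 0.567) and -0.51 ± 0.64 in IC (adjusted p = 0.570), and with the mouse block the gene was called lower in both (adjusted p = 0.00359 and 0.0122). Of the 8 osteoclast markers listed, Calcr was at 0 in all libraries, Ctsk reached at most 3.52 CPM, and Dcstamp, a fusion protein of osteoclasts and giant cells, went from 12.1 to 18.6 CPM in DMSO libraries to 1.58 to 5.23 CPM in iBET libraries. Nfatc1, the most abundant of the 8 and a transcription factor of osteoclasts, was at means of 63.9 and 64.2 CPM in DMSO and iBET with Ova and 53.7 and 53.9 CPM with IC, and Mmp9 at 1.93 and 2.06 CPM with Ova and 3.31 and 2.41 CPM with IC. The part of such cells in the Atp6v0d2 difference was not tested. Acp5, the other osteoclast-linked gene, was at 2.16 to 7.81 CPM, lowest in mouse C in each group, and was not called (adjusted p = 0.957 and 0.481).

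The remaining pump genes were not called in either stimulation. Atp6v0a1, Atp6v0b, Atp6v0d1 and the accessory subunit Atp6ap1 had positive values, from 0.03 to 0.33 in Ova and from 0.21 to 0.38 in IC. The catalytic subunit Atp6v1a and the nucleotide-binding Atp6v1b2 were at -0.25 ± 0.12 and -0.07 ± 0.12 in Ova and at -0.07 ± 0.12 and 0.15 ± 0.12 in IC. Atp6v1c1, which links V1 to the stalks, was at -0.30 ± 0.15 in Ova (adjusted p = 0.148) and -0.31 ± 0.15 in IC (adjusted p = 0.120), and its 3 iBET libraries were below its 3 DMSO libraries in IC. Without mouse A it was called lower in both (adjusted p = 0.0114 and 0.0371), and Atp6v1a in Ova (adjusted p = 0.0388). The median of the V0 genes was 0.11 in Ova and 0.29 in IC, and that of the V1 genes -0.21 and -0.07.

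Among the 9 glycosidases, which cut sugars from glycans and glycolipids, 2 rose in Ova (22.2%) and 3 in IC (33.3%). Over all genes 17.1% and 19.0% were higher. Neu1 had the largest change of the 9. Neu1, on chromosome 17 (34931253 to 34935953), encodes the sialidase that removes terminal sialic acid. It was at 40.6, 43.2 and 41.0 CPM in DMSO, Ova and at 80.4, 73.1 and 74.6 CPM in iBET, Ova. In the IC libraries it was 37.9, 50.1 and 47.2 CPM in DMSO and 82.7, 93.1 and 79.2 CPM with iBET. Every iBET library was above every DMSO library, in all 3 mice and both stimulations. Its log2 fold change was 0.87 ± 0.12 in Ova (adjusted p = 0.00015) and 0.92 ± 0.11 in IC (adjusted p = 7.3e-05), 1.82-fold and 1.89-fold. It was the largest change among the 49 genes in both stimulations, and Neu1 was called in both in each of the 26 alternative fits.

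**Figure D4:**
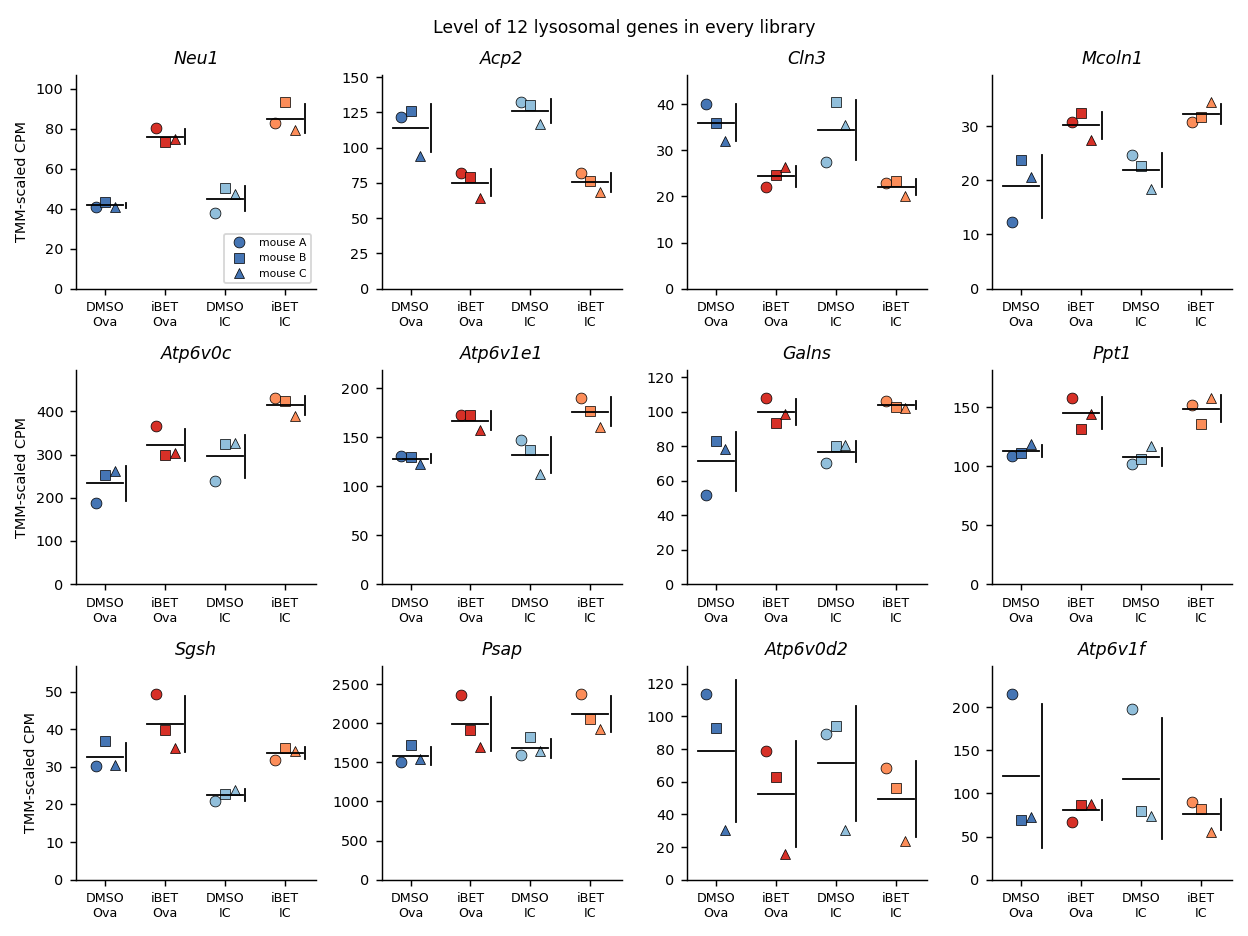
Level of 12 of the genes in every library (TMM-scaled CPM, axes from 0), by group, with a symbol for each mouse, the mean as a horizontal line and 1 SD (n = 3) as a vertical line. Neu1, Mcoln1, Galns, Atp6v0c, Ppt1 and Atp6v1e1 are higher and Acp2 and Cln3 lower with iBET, Atp6v0d2 is low in mouse C throughout, and Atp6v1f is high in the 2 DMSO libraries of mouse A.

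Hexa, on chromosome 9 (59539540 to 59565109), was at 502, 484 and 473 CPM in DMSO, Ova and at 615, 539 and 555 CPM in iBET, Ova. In IC it was at 480, 486 and 508 CPM in DMSO and at 624, 543 and 599 CPM with iBET. The groups did not overlap, and the replicates were the closest of all 49 genes, with a coefficient of variation of at most 7.03% in any group. The fitted log2 change was small, 0.23 ± 0.09 in Ova (adjusted p = 0.0747, and 0.0472 with the mouse block) and 0.26 ± 0.09 in IC (adjusted p = 0.0414), and the IC call was lost in 9 of 12 fits that left out 1 library. Naglu, which acts on heparan sulfate, was 0.47 ± 0.14 higher in Ova (adjusted p = 0.0252) and 0.39 ± 0.14 different in IC (adjusted p = 0.0503, and 0.0297 with the block). Man2b1, the lysosomal alpha-mannosidase, was 0.46 ± 0.16 higher in IC (adjusted p = 0.0468) and 0.40 ± 0.16 different in Ova (adjusted p = 0.0845). Glb1, the beta-galactosidase, Gaa, the acid alpha-glucosidase, Gla, the alpha-galactosidase, Gusb, the beta-glucuronidase, and Idua, the alpha-iduronidase, lay between -0.10 and 0.22 in Ova and between -0.07 and 0.25 in IC, with none called.

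All 5 sulfatases, which remove sulfate from glycosaminoglycans and sulfatide, had positive values in both stimulations. Of all 11468 tested genes, 5917 did in Ova and 5699 in IC. As higher, 1 sulfatase was called in Ova (20%) and 3 in IC (60%), against 17.1% and 19.0% of all genes. Galns, on chromosome 8 (122578242 to 122611463), acts on keratan and chondroitin sulfate. It was at 51.9, 83.1 and 78.5 CPM in DMSO, Ova and at 108, 93.4 and 98.9 CPM in iBET, Ova. With IC the level was 70.1, 80 and 80.5 CPM in DMSO and 106, 103 and 102 CPM with iBET. The iBET libraries were above the DMSO libraries in both. The log2 fold change was 0.47 ± 0.14 in Ova (adjusted p = 0.0247) and 0.43 ± 0.14 in IC (adjusted p = 0.0320), and within mouse A it was 1.06 in Ova, against 0.17 and 0.33 in mice B and C.

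Sgsh, the heparan N-sulfatase on chromosome 11 (119343425 to 119355536), was higher with the drug in IC and lowest in DMSO, IC, and was chosen for description after its values were seen. It was at 30.3, 37.0 and 30.4 CPM in DMSO, Ova and at 49.5, 39.7 and 35.1 CPM in iBET, Ova. Under IC the gene was at 20.9, 22.9 and 23.9 CPM in DMSO and at 31.8, 34.9 and 34.2 CPM with iBET. The DMSO, IC libraries were the lowest of the 12, below every DMSO, Ova and every iBET, IC library. With iBET it was 0.57 ± 0.14 higher in IC (adjusted p = 0.00634) and 0.34 ± 0.14 different in Ova (adjusted p = 0.0818). With IC against Ova it was at -0.54 ± 0.14 in DMSO (adjusted p = 0.0988), which did not pass, though DESeq2 with the mouse block and edgeR with 1 surrogate variable each called it lower. The DMSO, IC libraries enter both comparisons, so the 2 values are not independent. The drug call in IC was lost without mouse B (adjusted p = 0.0983). Arsb, the arylsulfatase that acts on dermatan and chondroitin sulfate, was 0.47 ± 0.14 higher in IC (adjusted p = 0.0189) and 0.35 ± 0.14 different in Ova (adjusted p = 0.0773, and 0.0109 with the block), and Ids and Arsa were called in neither.

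None of the 5 genes for lipid breakdown and lipid binding was called in either stimulation without the block. Of all genes, 17.1% were higher and 14.2% lower in Ova, and 19.0% and 15.8% in IC. Psap, on chromosome 10 (60277627 to 60302597), was at 1500, 1720 and 1540 CPM in DMSO, Ova and at 2360, 1910 and 1690 CPM in iBET, Ova. In the IC libraries it was 1590, 1820 and 1640 CPM in DMSO and 2380, 2050 and 1930 CPM with iBET. The groups overlapped in Ova and did not in IC. Its log2 fold change was 0.32 ± 0.13 (adjusted p = 0.0816) and 0.33 ± 0.13 (adjusted p = 0.0690), and with the block it was called in both (adjusted p = 0.0470 and 0.0362). Npc2, the soluble cholesterol-binding protein, was at 0.43 ± 0.16 in Ova (adjusted p = 0.0583, and 0.0125 with the block) and 0.30 ± 0.16 in IC (adjusted p = 0.165). Lipa, the acid lipase, Asah1, the acid ceramidase, and Smpd1, the acid sphingomyelinase, lay from -0.05 to 0.18 in Ova and from 0.10 to 0.20 in IC.

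Of the 5 peptidases, thioesterases and phosphatases, Ppt1 was called higher and Acp2 lower in both stimulations. Each made up 20% of the 5. Of all genes, 17.1% were higher and 14.2% lower in Ova, and 19.0% and 15.8% in IC. Acp2, the lysosomal acid phosphatase on chromosome 2 (91202885 to 91214098), was at 122, 126 and 94.3 CPM in DMSO, Ova and at 82.2, 79.1 and 64.1 CPM in iBET, Ova. In IC it was at 132, 130 and 117 CPM in DMSO and at 81.7, 76.5 and 68.4 CPM with iBET. Every iBET library was below every DMSO library of the same stimulation, and the 3 mice moved by like amounts, from -0.77 to -0.56. It fell by 0.60 ± 0.13 on the log2 scale in Ova (adjusted p = 0.00477) and by 0.74 ± 0.13 in IC (adjusted p = 0.000977). Of the fits that left out a library or a mouse, the call was lost in 1, without mouse B in Ova (adjusted p = 0.113). Its exons overlap those of Ddb2 on the opposite strand, which was at 0.953 to 3.32 CPM.

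Ppt1, the palmitoyl thioesterase on chromosome 4 (122836242 to 122859175), was at 109, 111 and 119 CPM in DMSO, Ova and at 158, 132 and 144 CPM in iBET, Ova. With IC the level was 102, 106 and 117 CPM in DMSO and 152, 136 and 158 CPM with iBET. There was no overlap in either stimulation. The fitted log2 change was 0.36 ± 0.10 in Ova (adjusted p = 0.0196) and 0.46 ± 0.10 in IC (adjusted p = 0.00424). Its exons overlap those of Cap1 on the opposite strand, so part of its counts is uncertain. Cap1 was at means of 1260 CPM in DMSO, Ova and 1270 in iBET, Ova, and of 1190 in DMSO, IC and 1090 in iBET, IC. The part of Cap1 reads in the Ppt1 counts was not tested.

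Lgmn, on chromosome 12 (102394084 to 102439813), was at 814, 906 and 705 CPM in DMSO, Ova and at 997, 852 and 800 CPM in iBET, Ova. Under IC the gene was at 759, 779 and 740 CPM in DMSO and at 1020, 805 and 727 CPM with iBET. The groups overlapped, and the log2 values of 0.13 ± 0.14 and 0.16 ± 0.14 did not pass (adjusted p = 0.523 and 0.385). Tpp1, a tripeptidyl peptidase, was at 0.26 ± 0.18 and 0.36 ± 0.18 and was not called (adjusted p = 0.303 and 0.146).

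The 2 mannose 6-phosphate receptors were called in neither stimulation with iBET. M6pr, the cation-dependent receptor on chromosome 6 (122308720 to 122317680), was at 254, 315 and 301 CPM in DMSO, Ova and at 342, 324 and 344 CPM in iBET, Ova. In the IC libraries it was 305, 374 and 382 CPM in DMSO and 366, 389 and 382 CPM with iBET. The groups did not overlap in Ova and did in IC, and the log2 values were 0.21 ± 0.11 (adjusted p = 0.168) and 0.10 ± 0.11 (adjusted p = 0.519). Igf2r, the cation-independent receptor, was at 0.10 ± 0.10 and -0.13 ± 0.10 (adjusted p = 0.481 and 0.351).

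With the immune complex, none of the 49 genes passed the edgeR test. In DMSO, 0 were higher and 0 lower with IC against Ova, where 0.732% of all genes were higher and 0.488% lower, and 5 of the 49 (10.2%, against 11.7% of all genes) had an unadjusted p under 0.05. In iBET, 0 were higher and 0 lower, where 0.314% were higher and 0.0349% lower, and 2 (4.08%, against 7.5%) had an unadjusted p under 0.05. Neither share exceeded that of all genes. The mouse block left both counts at 0 for the 49 genes (1.47% and 1.27% of all genes in DMSO, 0.593% and 0.148% in iBET) and called 0.00% of all genes for the interaction. DESeq2 without the block called 0 as well. With shares this low among all genes, a count of 0 in 49 is near the background.

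The IC estimates lay nearer 0 than those of the drug, with similar errors (median SE 0.1403 in DMSO and 0.1375 in iBET, against 0.1397 and 0.1384 for the drug). The 95% interval of the log2 fold change lay within 1.5-fold in either direction for 41 of 49 genes in DMSO and 42 in iBET, against 24 and 21 for iBET in Ova and IC and 31 for the interaction. Over all genes the interval was that narrow for 49.4% and 53.5% with IC and for 29.1% and 29.6% with the drug. The median log2 fold change with IC was 0.03 in DMSO and 0.09 in iBET. The 5 genes with an unadjusted p under 0.05 in DMSO were Sgsh, described above, Igf2r at 0.29 ± 0.10 (adjusted p = 0.243), M6pr at 0.28 ± 0.11 (adjusted p = 0.313), Atp6v1h at 0.33 ± 0.15 (adjusted p = 0.410) and Atp6v0c at 0.34 ± 0.15 (adjusted p = 0.418). Both receptors were thus among them, and Igf2r had 243, 263 and 232 CPM in DMSO, IC against 177, 216 and 207 CPM in DMSO, Ova, without overlap. In iBET the 2 genes were Atp6v0c at 0.36 ± 0.15 (adjusted p = 0.597) and Sgsh at -0.31 ± 0.14 (adjusted p = 0.633). Without mouse A, Atp6v0c was called higher with IC in iBET (adjusted p = 0.0237). All 3 IC libraries were above all 3 Ova libraries in 1 gene in DMSO and in 4 in iBET (7.80% and 9.53% of all genes), and below in 1 and 1 (7.47% and 9.34%).

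**Figure D5:**
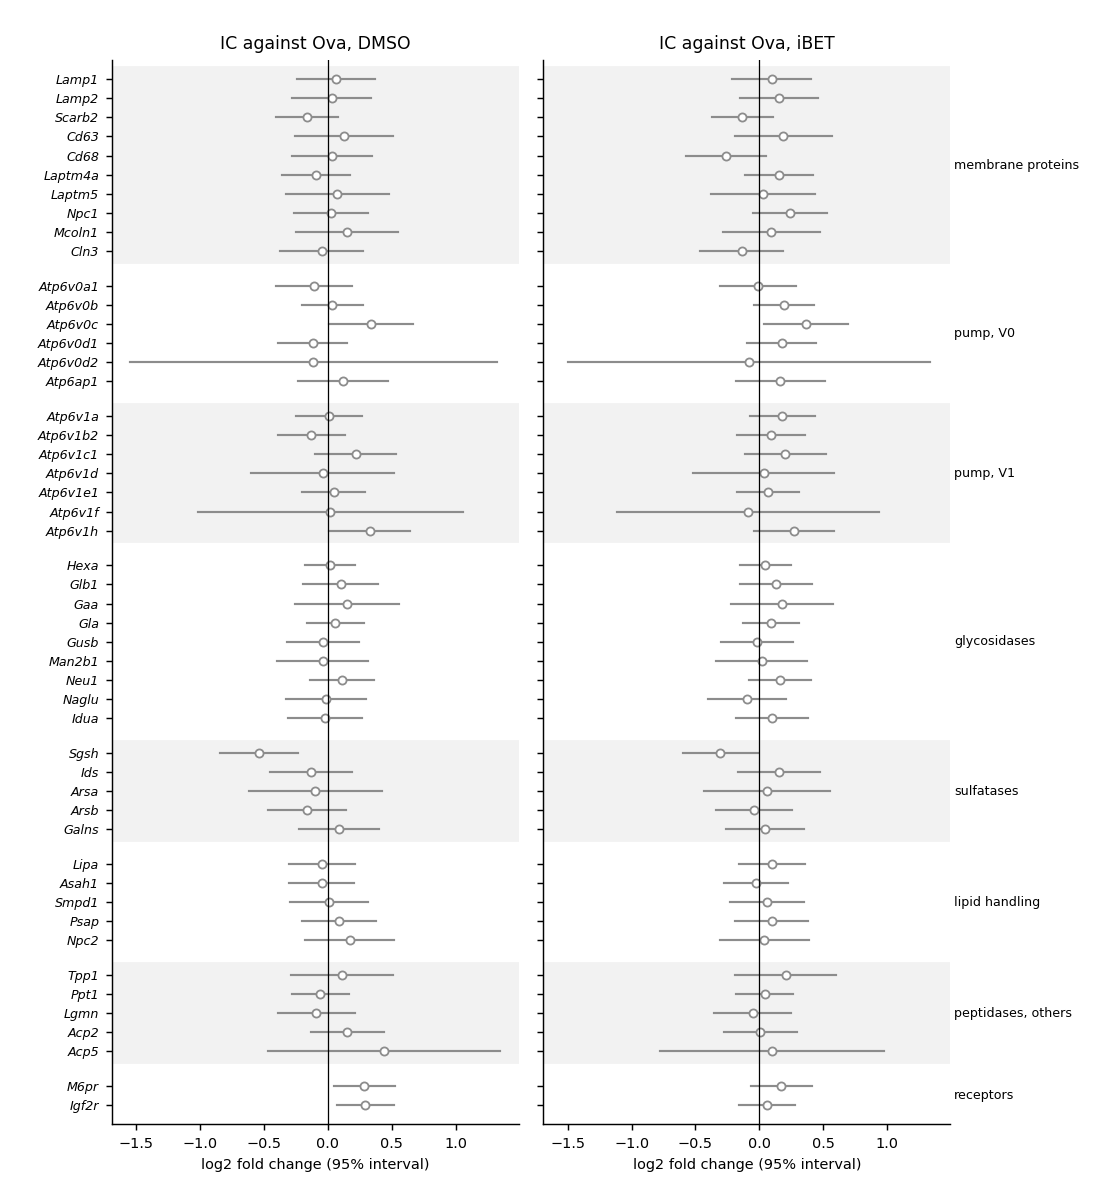
Log2 fold change of each gene with IC against Ova in DMSO (left) and iBET (right), with 95% intervals. All points are open because none of the 49 genes passed an adjusted p under 0.05, and Sgsh at -0.54 in DMSO lies furthest from 0 in either panel.

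Genes with and without the E-box were among those that rose. Of the 14 genes with CACGTG in a window, 2 were higher and 1 lower in each stimulation, with a median log2 fold change of 0.12 in Ova and 0.23 in IC. Of the 27 without it, 4 were higher and 1 lower in Ova and 8 and 1 in IC, with medians of 0.21 and 0.26. Over all tested genes 17.1% were higher and 14.2% lower in Ova, and 19.0% and 15.8% in IC. The 6 genes with TCACGTGA had medians of -0.03 and -0.07. This is a description over few genes, with no test, and a match is not evidence of binding.

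Transcripts of the MiT/TFE factors themselves changed with iBET. Mitf was 120 ± 19.7 CPM (SD, n = 3) in DMSO, Ova and 43.2 ± 4.15 in iBET, Ova, a log2 fold change of -1.47 ± 0.12 (adjusted p = 4.19e-06), and -1.63 ± 0.12 in IC (adjusted p = 1.47e-06). Tfeb went from 28.6 ± 3.51 to 15.2 ± 2.11 CPM in Ova, at -0.91 ± 0.15 (adjusted p = 0.000573), and was at -0.98 ± 0.14 in IC (adjusted p = 0.000252). Tfec, the scarcest, was at -2.39 ± 0.34 and -2.05 ± 0.31 (adjusted p = 0.000236 and 0.000283). Tfe3 went the other way, at 0.38 ± 0.12 in Ova (adjusted p = 0.0329) and 0.30 ± 0.12 in IC (adjusted p = 0.0765, and 0.0275 with the block). Of 17 listed factors and nutrient-signalling regulators, 4 were higher and 4 lower in Ova (23.5% each, against 17.1% and 14.2% of all genes). In IC 5 were higher and 4 lower (29.4% and 23.5%, against 19.0% and 15.8%). Among those higher in both were Rraga, a Rag GTPase that recruits the factors to the lysosome, at 0.68 and 0.71 (adjusted p = 0.00335 and 0.00188), and Fnip1, a partner of folliculin, at 0.49 and 0.67 (adjusted p = 0.00442 and 0.000473).

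Lysosomal genes outside the 49 were also called, mostly as higher. Of 33 other enzymes, membrane proteins and enzyme-tagging proteins, 12 were higher in Ova (36.4%, against 17.1% of all genes) and 1 lower (3.03%, against 14.2%). In IC 13 were higher (39.4%, against 19.0%) and 1 lower (3.03%, against 15.8%), with medians of 0.30 and 0.34. Among the rises were Cd164, a sialomucin of endosomes and lysosomes, at 1.42 ± 0.12 and 1.46 ± 0.12 (adjusted p = 6.67e-06 and 3.51e-06), Hgsnat, which acetylates heparan sulfate, at 0.90 ± 0.10 and 0.80 ± 0.09 (adjusted p = 2.67e-05 and 4.94e-05), and Ctns, the cystine exporter, at 0.75 ± 0.20 and 0.89 ± 0.19 (adjusted p = 0.0123 and 0.00361). The one that fell was Gnptab, the enzyme that starts the mannose 6-phosphate tag, at -0.64 ± 0.11 and -0.59 ± 0.11 (adjusted p = 0.000682 and 0.00102). Of 11 further pump subunits 5 were expressed enough to test, and none was called in both stimulations. Atp6v0a2 and Tcirg1 were higher in Ova (0.30 and 0.40, adjusted p = 0.0376 and 0.0328) and Atp6ap2 in IC (0.36, adjusted p = 0.0154). These were 40% of the 5 in Ova and 20% in IC, against 17.1% and 19.0% of all genes.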

How the data were processed

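Total RNA of BMDMs, which the labels call sorted and the study describes as lysed in culture, was made into 12 libraries with a SMARTer pico kit (4 groups, 3 mice in each). Per the labels and the methods of the study, the authors trimmed reads with Trim Galore, aligned them to mm10 with HISAT2 and deposited whole-number counts per gene from featureCounts. Versions, gene annotation and strand setting are not given in the sources used here. The authors also deposited a normalized signal, which equals the counts over DESeq2 size factors.

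Genes were filtered with filterByExpr (minimum count 10), scaled by TMM and fitted in edgeR 4.0.16 (R 4.3.3) with 1 term per group over all 12 libraries. Contrasts were tested with the quasi-likelihood test, two-sided, with Benjamini-Hochberg adjustment over 11468 genes, and called at an adjusted p under 0.05. CPM are TMM-scaled, and per-mouse differences used log2 CPM with a prior count of 2. Exon lengths, coordinates and overlaps came from GENCODE vM21 (GRCm38), promoters from RefSeq. Fits were tested on simulated data with 200 changed genes. The simulation gave every gene the same dispersion and held no effect of mouse, so it does not cover differences among mice. The labels give the mouse of each library, so samples with 1 letter come from 1 animal. Deviations from the group means were correlated between pairs of libraries. Over all tested genes the median was 0.26 within a mouse (18 pairs, from -0.07 to 0.54) and -0.13 between different mice. Over the lysosomal genes described here it was 0.60 within a mouse (18 pairs, from 0.003 to 0.85) and -0.41 between different mice. The main fit left this pairing out. The study's methods do not spell out a block, so mouse as a block was an alternative, beside DESeq2 1.42.0, limma 3.58.1 on log2(signal + 1), sva 3.50.0, other filters, other samples and a threshold of 0.01.

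Given library by library were, in each role, up to 2 genes with the largest mean iBET change among those called in both stimulations with 1 sign in 3 of 3 mice, and the gene with the highest level per kilobase. Other genes so given are named as chosen after their values were seen. The members and all gene lists were chosen with earlier results of these data known. Depth was 7549849 to 17387639 counts per library with Rn45s included, and 14 of the 49 genes share exon sequence with a gene on the opposite strand.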

Additional observations from a re-analysis of the deposited data

How the results depend on the processing

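Over all 49 genes and 26 alternatives no called value reversed its direction. Mouse as a block gave 12 higher and 3 lower genes in Ova and 16 and 3 in IC and changed no other call of the 49 genes. Higher genes in Ova numbered 8, and 1 at an adjusted p under 0.01 (2.04%, against 10.2% of all genes). They numbered 3 when the compared groups were fitted alone (6.12% against 13%) and 1 to 9 when a library or mouse was left out. The Ova median of 0.17 ran from 0.0188 to 0.233 and the IC median of 0.22 from 0.173 to 0.2776 over the same fits. Lower genes in Ova numbered 2, and 1 at an adjusted p under 0.01 (2.04% against 8.34%) and 0 to 4 with a library or mouse left out. Higher genes in IC numbered 11, and 7 with limma on the normalized signal (14.3%, against 16.3% of all genes). They numbered 3 at an adjusted p under 0.01 (6.12% against 12.2%) and 1 to 12 with a library or mouse left out. Lower genes in IC numbered 2, and 1 to 3 with a library or mouse left out. The lowest counts came without mouse B (1 higher gene in Ova and in IC) and with mouse A of iBET, Ova left out (1 in Ova). For IC against Ova in DMSO the count of lower genes was 0, and 1 (Sgsh) under DESeq2 with the block and with 1 surrogate variable. That is 2.04%, against 1.77% and 1.86% of all genes. The median of 0.03 ran from -0.0139 to 0.0642 when a library or mouse was left out. For IC in iBET the count of higher genes was 0 to 1 and the median of 0.09 ran from 0.0292 to 0.1683. Size factors from DESeq2 moved the median of all genes by -0.04 and -0.03 in the iBET contrasts. The cause of these changes was not tested, apart from the smaller number of libraries in the fits that left some out. Depth limits the DMSO, Ova library of mouse A most, where Arsa had 10 counts and Acp5 had 8.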
